A study of Rattus norvegicus with 8 samples.

Results

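The genes described here encode the mitochondrial respiratory chain and ATP synthase. They were chosen by name: every probe set with a single gene symbol that begins with Nduf, with Sdh followed by a, b, c or d, with Uqcr, with Cox followed by a digit from 4 to 8, or with Cyc1, Cycs or Atp5. This gave 102 of the 8799 probe sets on the array, for 56 of the 4736 genes with a single symbol. By name, 49 probe sets of 27 genes belonged to complex I, 2 of 2 genes to complex II, 7 of 4 genes to complex III, 27 of 13 genes to complex IV and 17 of 10 genes to ATP synthase. No probe set for cytochrome c (Cycs) met the rule, and 7 probe sets that carried several symbols, at least 1 of them fitting, were left out. There were 28 genes with a single probe set and 28 with more than 1.

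The study profiled total RNA of the rat glioma line C6, a tumour line of glial origin, on 8 Affymetrix rat arrays, and migration is the topic its labels give. The arrays fell into 4 groups of 2: C6SPGFP fast, C6SPGFP slow, C6 fast and C6 slow. The labels do not explain C6SPGFP or how fast and slow cells were obtained, nor do they say that replicates came from separate cultures. The p-values therefore cover only the spread between these arrays, which may be technical, and with 2 arrays per group the number of arrays limits the precision of every value.

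The respiratory chain sits in the inner mitochondrial membrane. Complex I takes electrons from NADH and complex II takes them from succinate, both pass them to ubiquinone, complex III hands them to cytochrome c, and complex IV reduces oxygen. Complexes I, III and IV pump protons, and ATP synthase uses the proton gradient to make ATP. Most subunits are encoded in the nucleus, where NRF1 and the ETS family factor GABP are known regulators of many of their promoters, and a smaller number are encoded in mitochondrial DNA, none of which the rule covers.

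Values are quantile-normalised signals in intensity units, because the deposited signals of C6SPGFP fast replicate 1 were on another scale, with a trimmed mean of 501 against 100 to 106 on the other arrays. Of the 102 probe sets, 99 had a mean signal of at least 8 and were tested, covering all 56 genes, and 84 had a mean signal at or above the median of all probe sets. A probe set was called when its Benjamini-Hochberg adjusted p, over all 6684 probe sets tested, was under 5% in limma. The glial markers fixed for C6 cells (6 genes with 9 probe sets, and none for Gfap) summed to 7138 and 7356 in C6SPGFP fast cells, 7481 and 7600 in C6SPGFP slow cells, 2958 and 3171 in C6 fast cells, and 5182 and 5037 in C6 slow cells. Sox10, a glial transcription factor, had 2.23 and 0.90 in C6 fast cells against 240 and 367 in C6 slow cells, so this glial marker was near 0 in C6 fast cells. Of these 9 probe sets, 6 were called lower in C6 fast cells than in C6 slow cells and 8 were called higher in C6SPGFP fast cells than in C6 fast cells. Vim was not called in C6 fast minus slow, with 2594 and 2723 against 3082 and 2681 (-0.11, limma adjusted p = 0.61). The dimmer probe sets of S100b (-0.19) and Ptprz1 (-1.08) were not called there either. Markers of microglia and blood cells (5 genes with 9 probe sets, of which 5 were tested) summed to 107 and 113 in C6SPGFP fast cells, 110 and 96.7 in C6SPGFP slow cells, 133 and 151 in C6 fast cells, and 98.1 and 92.4 in C6 slow cells, highest in C6 fast cells. Of these, Cd37, a leukocyte membrane protein, was called higher in C6 fast than in C6 slow cells (1.41 log2, limma adjusted p = 0.027). It was called lower in C6SPGFP fast than in C6 fast cells (-1.10, limma adjusted p = 0.042). Cd37 had 40.0 and 66.2 in C6 fast cells against 16.15 and 13.0 in C6 slow cells. The other probe sets tested were not called in any comparison. In C6 fast minus slow they gave -0.60 and 0.18 for Aif1, 0.08 for Csf1r and 0.33 for Ptprc. The microglial marker Itgam stayed between 0.75 and 4.65 on all arrays. Summed signals lay between 65.7 and 115 for endothelial and mural cells, 291 and 415 for neurons, and 159 and 274 for striated muscle, where single probe sets of Gap43 (neuronal, 0.94, adjusted p = 0.047) and Tnnt2 (muscle, 0.78, adjusted p = 0.038) were called higher in C6SPGFP fast than in C6 fast cells. The part of these marker shifts in the results below was not tested, and fewer cells of a kind and less RNA per cell cannot be told apart in these samples.

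The 250 bases upstream of the transcription start were examined for GCGCA and GCGC with any 1 base between them, a consensus for NRF1, and for CCGGAAG, a core of ETS family sites that GABP can bind, on both strands. A RefSeq promoter of assembly GRCr8 was matched to 47 of the 56 genes. The NRF1 letters stood in 5 of 47 (10.6%), against 3.75% of all 33469 promoters of that length, and the ETS letters in 9 of 47 (19.1%), against 7.27%. Either motif stood in 14 of 47 (29.8%), against 10.4% of all promoters. Among the 7 called genes with a promoter record, the NRF1 letters stood in 0 and the ETS letters in 2, Cox5b and Sdhaf2. Shown are these 2, then Ndufv2, which was called in both comparisons between the sets, and Ndufc1, whose 2 C6 fast arrays were the lowest, as for Cox5b. They were chosen with their values known. Each sequence runs 5′ to 3′ on the gene's own strand and ends at the base before the start, and capitals mark ETS matches, which in Sdhaf2 read on the reverse strand.
Cox5b: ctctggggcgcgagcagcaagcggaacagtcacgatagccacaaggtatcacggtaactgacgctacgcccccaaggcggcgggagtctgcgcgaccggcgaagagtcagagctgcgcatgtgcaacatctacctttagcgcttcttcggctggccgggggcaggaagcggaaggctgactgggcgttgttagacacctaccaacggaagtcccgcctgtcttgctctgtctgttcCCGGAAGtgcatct
Sdhaf2: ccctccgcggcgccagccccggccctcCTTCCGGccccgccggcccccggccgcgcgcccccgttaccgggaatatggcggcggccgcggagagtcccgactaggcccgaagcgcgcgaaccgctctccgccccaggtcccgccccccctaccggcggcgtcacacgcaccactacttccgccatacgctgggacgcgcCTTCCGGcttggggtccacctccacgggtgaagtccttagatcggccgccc
Ndufv2: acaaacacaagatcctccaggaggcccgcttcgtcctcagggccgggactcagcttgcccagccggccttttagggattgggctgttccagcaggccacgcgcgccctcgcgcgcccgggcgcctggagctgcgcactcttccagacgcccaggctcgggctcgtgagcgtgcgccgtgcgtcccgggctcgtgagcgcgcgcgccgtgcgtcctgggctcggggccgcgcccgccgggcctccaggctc
Ndufc1: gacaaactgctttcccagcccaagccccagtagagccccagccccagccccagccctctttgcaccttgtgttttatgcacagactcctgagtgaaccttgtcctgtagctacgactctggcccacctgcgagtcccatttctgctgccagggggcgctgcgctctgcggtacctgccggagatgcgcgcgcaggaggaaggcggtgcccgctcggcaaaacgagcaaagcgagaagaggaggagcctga
In GRCr8 they lie at chr9:46417587-46417836 on the plus strand (Cox5b), and on the minus strand at chr1:216592669-216592918 (Sdhaf2), chr9:113157521-113157770 (Ndufv2) and chr2:137601736-137601985 (Ndufc1). The match in Cox5b covers bases 14 to 8 before the start, and those in Sdhaf2 cover bases 223 to 217 and 51 to 45. A match is a run of letters and not a measured site.

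Few of these genes were called between fast and slow cells. In C6SPGFP fast against C6SPGFP slow cells none of the 99 member probe sets was called in limma, against 1.39% of all probe sets tested, and 3 had an unadjusted p under 0.05. In C6 fast against C6 slow cells, 1 of 99 was called, against 6.66% of all probe sets, and it was lower in fast cells, as were 3.96% of all probe sets. The difference between the 2 changes (C6SPGFP minus C6) was called for none of the 99 in limma, against 3.82% of all probe sets, and 9 had an unadjusted p under 0.05.

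More members were called between the sets. In C6SPGFP fast against C6 fast cells, 8 of 99 were called, against 15.6% of all probe sets. Of these, 6 were higher, against 8.29% of all probe sets, and 2 were lower, against 7.3%. In C6SPGFP slow against C6 slow cells, 2 of 99 were called, against 6.34% of all probe sets, and both were higher, against 3.29%. In each of the 5 comparisons the share of members called was below that of all probe sets, as the plot of shares called shows. In all, 9 probe sets of 9 genes were called in at least 1 comparison and 90 in none. The same count was not made over all probe sets, so it has no share to be read against.

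**Figure D1:**
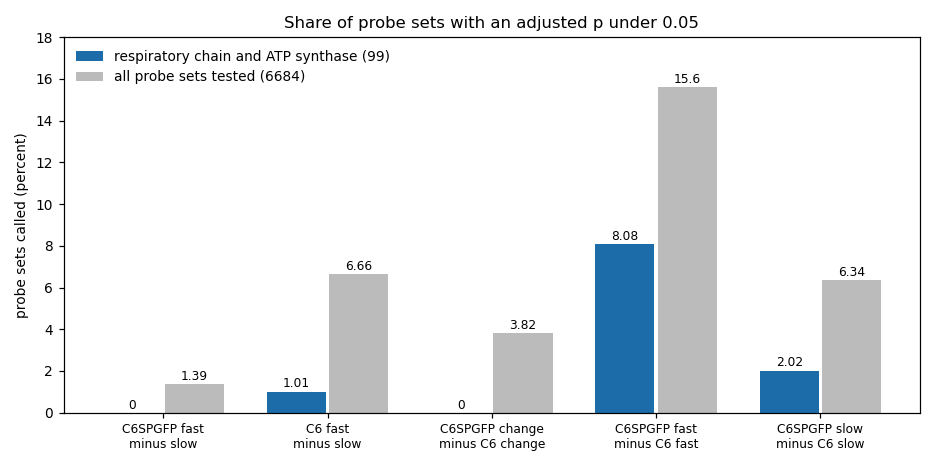
Percent of probe sets with a Benjamini-Hochberg adjusted p under 0.05 in limma (vertical axis) in each of 5 comparisons (horizontal axis), for the 99 respiratory chain and ATP synthase probe sets (blue) and all 6684 probe sets tested (grey). The blue bars reach 8.08% at most and are below the grey bars in every comparison.

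The precision of these probe sets bears on such counts. The median standard error of a log2 change within or between sets was 0.20 for members, against 0.24 for all probe sets tested. The 95% confidence interval of the change lay wholly within 2-fold in either direction for 86 of 99 members in C6SPGFP fast against slow (86.9%, against 72.4% of all probe sets) and for 81 in C6 fast against slow (81.8%, against 64.1%). It did so for 82 between the fast cells (82.8%, against 56.7%), for 82 between the slow cells (82.8%, against 63.2%) and for 67 on the difference between the 2 changes (67.7%, against 36.6%). Fitted changes beyond 2-fold were seen for 0 members in C6SPGFP fast against slow, 1 in C6 fast against slow, 2 on the difference, 1 between the fast cells and 0 between the slow cells. Over all probe sets, such changes made up 2.89%, 7.29%, 10.5%, 11% and 6.52% in the same order.

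The median log2 change of the 99 members stayed near 0. It was -0.04 in C6SPGFP fast against slow (all probe sets -0.02), -0.05 in C6 fast against slow (all 0.01), 0.04 for the difference (all -0.04), 0.11 between the fast cells (all -0.03) and 0.08 between the slow cells (all 0.01). Scaling each array by 1 factor in place of quantile normalisation moved the median of all probe sets between the fast cells to 0.08 and that of members to 0.12. Relative to all probe sets, the members' median between the fast cells was thus 0.14 higher under quantile normalisation and 0.05 higher under 1 factor, and between the slow cells it was 0.08 higher and 0.01 lower. Taken over arrays, the member signals made up 3.47% and 3.62% of the summed signal in C6SPGFP fast cells, 3.67% and 3.71% in C6SPGFP slow cells, 3.26% and 3.10% in C6 fast cells, and 3.67% and 3.26% in C6 slow cells. The C6 fast arrays had the lowest shares, with C6 slow replicate 2 beside them.

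**Figure D2:**
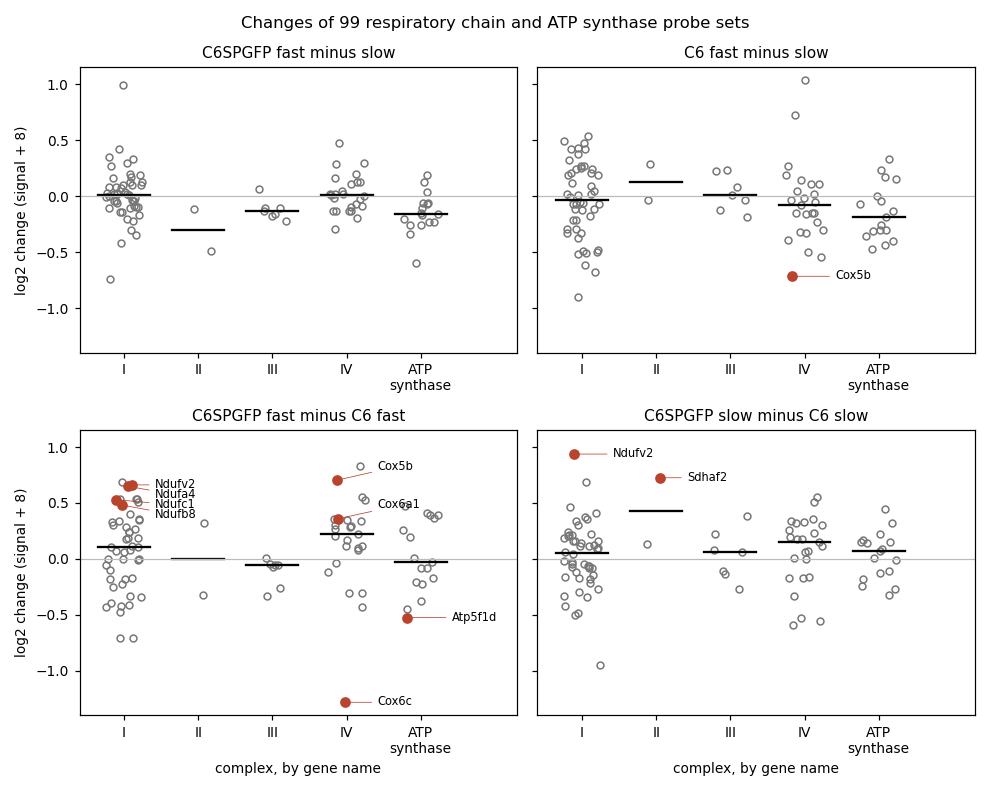
Log2 change of signal plus 8 (vertical axis) for the 99 tested probe sets, by complex (horizontal axis), in 4 comparisons; circles are single probe sets, filled red where called in limma and named, and black bars are medians. Most points lie between -0.5 and 0.5, and the named points are Cox5b in C6 fast minus slow, 8 genes between the fast cells, and Ndufv2 and Sdhaf2 between the slow cells.

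Complex I had 48 tested probe sets, with medians between -0.03 and 0.11 over the 5 comparisons. Of the 48, 4 were called between the fast cells, all higher in C6SPGFP (8.33%, against 8.29% of all probe sets called higher). Ndufv2 is an iron-sulfur subunit of the part of complex I that takes up NADH. It had 837 and 793 in C6SPGFP fast cells and 887 and 847 in C6SPGFP slow cells, against 515 and 509 in C6 fast cells and 487 and 413 in C6 slow cells. All 4 C6SPGFP arrays were above all 4 C6 arrays. It was higher in C6SPGFP by 0.66 ± 0.13 log2 in fast cells (SE, limma adjusted p = 0.012) and by 0.94 ± 0.13 in slow cells (limma adjusted p = 0.0061), and the fast minus slow change was not called in either set (-0.09 in C6SPGFP and 0.19 in C6). This was the only one of the 99 called in both comparisons between the sets, and it had no second probe set.

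Ndufa4, named as a complex I subunit and now counted with complex IV, had 990 and 990 in C6SPGFP fast cells and 991 and 1044 in C6SPGFP slow cells, against 680 and 580 in C6 fast cells and 842 and 744 in C6 slow cells. The C6SPGFP arrays were all above the C6 arrays, and the C6 fast arrays were lowest. It was higher in C6SPGFP fast than in C6 fast cells by 0.65 ± 0.13 log2 (limma adjusted p = 0.012), and by 0.36 between the slow cells, which was not called (adjusted p = 0.16).

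Ndufc1, a small membrane subunit, had 832 and 759 in C6SPGFP fast cells and 891 and 825 in C6SPGFP slow cells, against 566 and 531 in C6 fast cells and 828 and 742 in C6 slow cells. Only the C6 fast arrays were apart from the rest. The difference between the fast cells was 0.53 ± 0.13 log2 (limma adjusted p = 0.026), and C6 fast minus slow was -0.51 ± 0.13, just short of a call (adjusted p = 0.053). Its second probe set gave 0.51 between the fast cells (adjusted p = 0.21) and -0.62 in C6 fast minus slow (adjusted p = 0.20).

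Ndufb8, an accessory subunit of the membrane arm, had 1733 and 1797 in C6SPGFP fast cells against 1365 and 1166 in C6 fast cells, without overlap. The difference was 0.48 ± 0.13 log2 (limma adjusted p = 0.035), and it was 0.31 between the slow cells (adjusted p = 0.21), where 1659 and 1981 stood against 1426 and 1504. Ndufb8 was not called between the fast cells under scaling by 1 factor. Its other 3 probe sets, none of them called, gave 0.54, -0.43 and 0.69 between the fast cells. They disagreed in sign, and 2 of them had far lower signals, with means of 110 and 17.5.

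Other complex I members with large fitted changes were not called and had replicates that lay apart. Ndufa5, a subunit of the arm in the matrix, had 642 and 594 in C6SPGFP fast cells, 447 and 208 in C6SPGFP slow cells, 450 and 397 in C6 fast cells and 664 and 539 in C6 slow cells. The order of fast and slow cells was thus opposite in the 2 sets. Its changes were 0.996 ± 0.30 log2 in C6SPGFP (limma adjusted p = 0.25) and -0.49 in C6 (adjusted p = 0.44), and their difference of 1.49 was the largest among the members but was not called (adjusted p = 0.12). Without C6SPGFP slow replicate 1, whose signal of 447 was over 2-fold that of replicate 2, Ndufa5 was called in C6SPGFP fast minus slow, on the difference and between the slow cells.

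Ndufa8, a complex I subunit of the intermembrane space side, had 202 and 330 in C6SPGFP fast cells, 442 and 431 in C6SPGFP slow cells, 401 and 456 in C6 fast cells and 342 and 312 in C6 slow cells. C6SPGFP fast cells were the lowest group by mean. Its changes were -0.74 in C6SPGFP fast minus slow (limma adjusted p = 0.25), -1.12 on the difference (adjusted p = 0.11) and -0.71 between the fast cells (adjusted p = 0.066). Without C6SPGFP fast replicate 2 it was called on the difference and between the fast cells.

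Of the remaining complex I members, Ndufb3, a membrane arm subunit, changed by -0.68 in C6 fast minus slow (limma adjusted p = 0.084). Ndufv3, a small subunit of the NADH side, changed by -0.71 between the fast cells on a dim probe set (26.6 and 30.6 in C6SPGFP fast against 64.0 and 41.6 in C6 fast cells) and by -0.22 on a brighter one, neither of them called. A dim probe set of Ndufab1, the mitochondrial acyl carrier protein, gave the lowest change in C6 fast minus slow, -0.91 (adjusted p = 0.26), on signals of 20.5 and 4.0 against 22.7 and 31.1, while its bright probe sets gave -0.50 and -0.21. A dim probe set of Ndufs8, an iron-sulfur subunit, gave 0.54 there, and its other 3 probe sets gave 0.43, 0.24 and 0.43, none of them called. Mean signals in complex I ran from 8.85 for a probe set of Ndufs4 to 1579 for one of Ndufb8. Such levels are not comparable between probe sets. Ndufa4l2, a paralogue of Ndufa4, had 5 probe sets, of which 4 were tested, none of them called. The fifth stayed between 3.20 and 6.29, below the filter.

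Complex II had 2 members. Sdhaf2, a factor that helps add flavin to the catalytic subunit, had 414 and 413 in C6SPGFP fast cells against 367 and 295 in C6 fast cells, and 482 and 417 in C6SPGFP slow cells against 267 and 269 in C6 slow cells. All C6SPGFP arrays were above all C6 arrays. The difference was 0.73 ± 0.16 log2 between the slow cells (limma adjusted p = 0.036) and 0.32 between the fast cells, which was not called (adjusted p = 0.23). The catalytic subunit itself, Sdha, had 377 and 328 in C6SPGFP fast cells against 533 and 464 in C6SPGFP slow cells, a change of -0.49 that was not called (limma adjusted p = 0.29), and 484 and 403 in C6 fast cells against 460 and 448 in C6 slow cells. Mean signals were 365 for Sdhaf2 and 437 for Sdha.

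Complex III had 7 probe sets of 4 genes: Cyc1 (cytochrome c1), Uqcrc2 (a core protein), Uqcrfs1 (the Rieske iron-sulfur protein) and Uqcr11 (a small subunit). In limma none was called in any comparison, the fitted changes lay between -0.46 and 0.38, and 3 tests over the 5 comparisons had an unadjusted p under 0.05. All 7 intervals lay within 2-fold in each comparison. In C6SPGFP fast against slow the median change was -0.13, with 6 of 7 below 0, as were 3526 of all 6684 probe sets. In C6 fast against slow it was 0.01, with 3 of 7 below 0. The brightest probe set, of Uqcrfs1, had 1326 and 1328 in C6SPGFP fast cells, 1454 and 1451 in C6SPGFP slow cells, 1348 and 1290 in C6 fast cells and 1240 and 1252 in C6 slow cells, and the dimmest, also of Uqcrfs1, had a mean of 197. Cyc1 had 614 and 591 in C6SPGFP fast cells, 693 and 675 in C6SPGFP slow cells, 759 and 757 in C6 fast cells and 856 and 795 in C6 slow cells. Every C6SPGFP array was thus below every C6 array, and the change was -0.33 between the fast cells (limma adjusted p = 0.10) and -0.27 between the slow cells (adjusted p = 0.24), which were not called.

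Complex IV, cytochrome c oxidase, had 25 tested probe sets. Its median change between the fast cells was 0.22, with 19 of 25 above 0, as were 3134 of all 6684 probe sets. Under scaling by 1 factor it was 0.20, with 16 of 25 above 0. The medians of all probe sets were -0.03 and 0.08. Relative to them, complex IV was 0.255 higher under quantile normalisation and 0.121 higher under 1 factor. Several genes have more than 1 probe set here, and the probe sets of a gene are not independent. Between the slow cells the median was 0.15 under quantile normalisation and 0.04 under 1 factor, where the median of all probe sets was 0.06. Between the fast cells 3 of the 25 were called (12%, against 15.6% of all probe sets). Cox5b and Cox6a1 were higher in C6SPGFP and Cox6c was lower.

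Cox5b, a zinc-binding subunit encoded in the nucleus, had 1434 and 1611 in C6SPGFP fast cells, 1644 and 1684 in C6SPGFP slow cells, 983 and 881 in C6 fast cells and 1822 and 1292 in C6 slow cells. The 2 C6 fast arrays were below all others. C6SPGFP fast minus C6 fast was 0.70 ± 0.16 log2 (limma adjusted p = 0.022), and C6 fast minus slow was -0.72 ± 0.16 (adjusted p = 0.036), the only call among members within a set. Both comparisons use the same C6 fast arrays, and both calls were lost under scaling by 1 factor. Its second probe set gave 0.52 (adjusted p = 0.089) and -0.50 (adjusted p = 0.16). The 2 C6 slow arrays lay far apart, and the C6 change ranged from -0.96 to -0.47 when 1 array was left out. The call in C6 was kept without C6 slow replicate 2 and lost on leaving out any of the other 7 arrays, with adjusted p of up to 0.18.

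Cox6c, a small nuclear-encoded subunit, went the other way. Its probe set had 105 and 119 in C6SPGFP fast cells, 89.2 and 139 in C6SPGFP slow cells, 294 and 273 in C6 fast cells and 177 and 159 in C6 slow cells. All C6SPGFP arrays were below all C6 arrays, and C6 fast cells were highest. C6SPGFP fast minus C6 fast was -1.28 ± 0.22 log2, a fold of 2.43 on signal plus 8 (limma adjusted p = 0.0054), the largest change among the members in that comparison. This call was kept on leaving out each of the 8 arrays. C6 fast minus slow was 0.73 (adjusted p = 0.10) and the slow cells differed by -0.56 (adjusted p = 0.19), neither of them called. A second, dim Cox6c probe set, with a mean of 20.4, gave 0.08 between the fast cells, and one for the pseudogene Cox6c-ps1 gave 0.22. The probe sets of Cox6c disagree, and a copy of near-identical sequence could share signal with them.

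Cox6a1, the isoform of subunit 6a found in most tissues, had 2562 and 2514 in C6SPGFP fast cells and 2712 and 2692 in C6SPGFP slow cells, against 1997 and 1960 in C6 fast cells and 2240 and 2143 in C6 slow cells. The C6SPGFP arrays were all above the C6 arrays in quantile-normalised signal. The difference between the fast cells was 0.36 ± 0.09 log2 (limma adjusted p = 0.024), but under scaling by 1 factor it was 0.0015 (adjusted p = 0.996), so its size rests on the normalisation. Its other probe sets gave 0.30 and 0.28, and were not called.

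**Figure D3:**
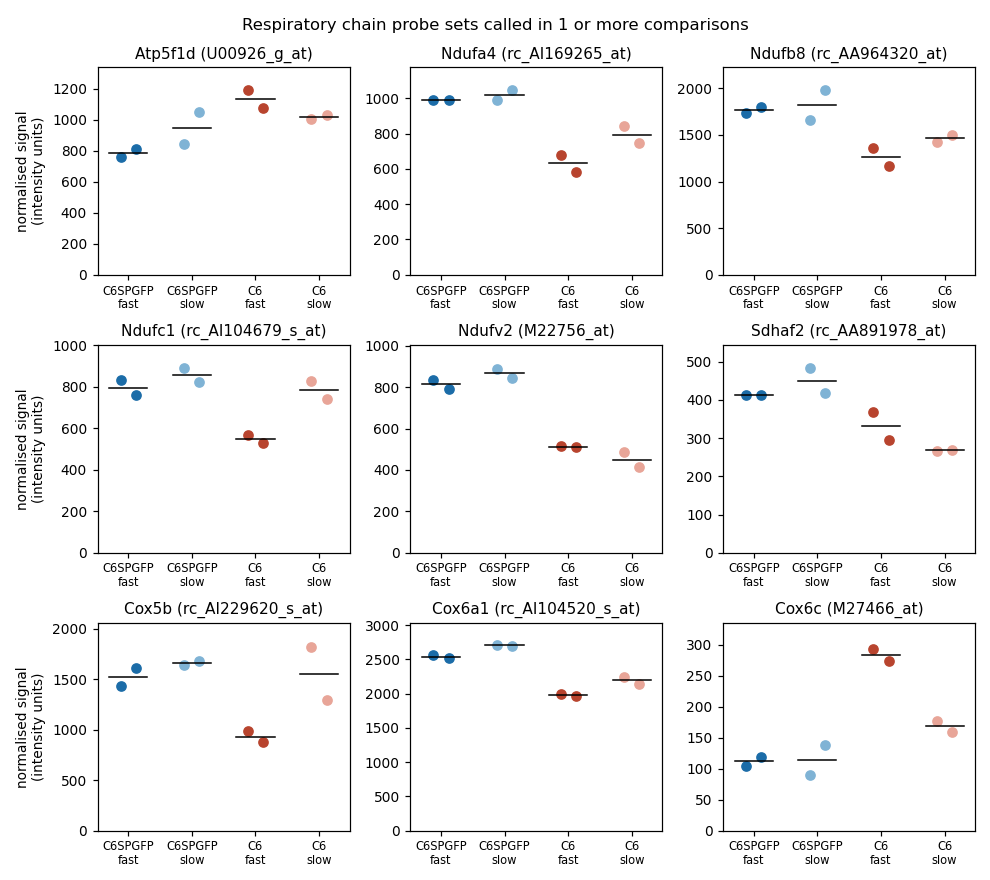
Normalised signal (vertical axis, intensity units, from 0) of the 9 probe sets called in at least 1 comparison, in the 4 groups (horizontal axis); points are single arrays and bars are means of 2 arrays. C6 fast arrays are lowest for Cox5b, Ndufa4, Ndufb8, Ndufc1 and Cox6a1 and highest for Cox6c and Atp5f1d. Of the 9, 8 were called between the fast cells, so an extreme place of C6 fast arrays is partly set by the choice.

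Complex IV subunits come in isoforms, some of which are known from heart and muscle or from lung. Cox4i1, the general form of subunit 4, had 3 probe sets with changes between the fast cells of 0.26 to 0.55, none of them called, and Cox4i2, the lung form, gave -0.11. Cox6a2, the muscle form of subunit 6a, had 2 tested probe sets with means of 14.2, the lowest in complex IV, and 74.7, and neither was called in any comparison. Its other probe set stayed between 0.91 and 1.56, below the filter. Cox8a, the general form of subunit 8, had 4 probe sets, among them the brightest of complex IV with a mean of 2851, and their changes between the fast cells lay between -0.31 and 0.20, with none called. Cox8b, the muscle form, had 17.7 and 31.2 in C6SPGFP fast cells, 9.51 and 21.9 in C6SPGFP slow cells, 22.9 and 41.8 in C6 fast cells and 14.4 and 8.38 in C6 slow cells, and its change of 1.03 ± 0.37 in C6 was not called (limma adjusted p = 0.17). Its second probe set stayed between 1.37 and 5.94, below the filter.

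Among the other complex IV members, Cox5a, a different subunit from Cox5b, had the largest fitted increase between the fast cells, 0.83, which was not called (limma adjusted p = 0.24). It had 45.8 and 49.7 in C6SPGFP fast cells against 10.9 and 43.9 in C6 fast cells, and the 2 C6 fast arrays lay far apart. Cox7a2l, a factor in supercomplex assembly, had 471 and 331 in C6SPGFP slow cells against 724 and 499 in C6 slow cells on 1 probe set, a change of -0.59 (adjusted p = 0.18), while its other probe set gave 0.15. Cox6b1 and Cox7b changed by -0.04 to 0.34 between the fast cells and were not called.

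ATP synthase had 17 probe sets of 10 genes, from the catalytic subunits of the head to the stalk and the inhibitor. Its median change was -0.16 in C6SPGFP fast against slow, with 14 of 17 below 0, and -0.19 in C6 fast against slow, with 12 of 17 below 0. Under scaling by 1 factor these were -0.16 and -0.24, with the same counts. Of all 6684 probe sets, 3526 were below 0 in C6SPGFP and 3236 in C6 under quantile normalisation. Per array, the median deviation of the 17 from each probe set's mean was -0.08 and -0.21 log2 in C6 fast cells. In C6 slow cells it was 0.21 and -0.04, so the replicates lay apart. It was -0.02 and -0.08 in C6SPGFP fast cells and 0.06 and 0.16 in C6SPGFP slow cells. In limma none of the 17 was called in either comparison, and 0 in C6SPGFP and 3 in C6 had an unadjusted p under 0.05. The probe sets of a gene share their source and are not independent. Atp5po, the stalk subunit known as OSCP, came nearest to a call in C6. Its brighter probe set had 1114 and 1153 in C6SPGFP fast cells against 1164 and 1362 in C6SPGFP slow cells, a change of -0.15, and 864 and 838 in C6 fast cells against 1267 and 1103 in C6 slow cells, a change of -0.47 (limma adjusted p = 0.068). Atp5f1b, the catalytic beta subunit, had the highest mean signal of the complex, 2031, with 1997 and 1788 in C6SPGFP fast cells, 2104 and 2336 in C6SPGFP slow cells, 2143 and 1873 in C6 fast cells and 1841 and 2169 in C6 slow cells. Its groups overlapped in all but the C6SPGFP pair.

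Atp5f1d, the delta subunit of the central stalk, was the only called member of ATP synthase. Its probe set had 761 and 811 in C6SPGFP fast cells, 841 and 1050 in C6SPGFP slow cells, 1193 and 1077 in C6 fast cells and 1006 and 1027 in C6 slow cells. C6 fast arrays were highest and C6SPGFP fast arrays lowest. The difference between the fast cells was -0.52 ± 0.14 log2 (limma adjusted p = 0.035), and the second probe set gave -0.45 (adjusted p = 0.16). Atp5if1, the inhibitor that blocks ATP hydrolysis by the enzyme, had 4 probe sets. On the dim one with the largest changes, 41.3 and 16.9 in C6SPGFP fast cells stood against 40.2 and 50.1 in C6SPGFP slow cells (-0.59) and the difference between sets was -0.83. The brightest had 666 and 577 in C6SPGFP fast cells, 702 and 727 in C6SPGFP slow cells, 776 and 675 in C6 fast cells and 608 and 538 in C6 slow cells. None of the 4 was called, and the dimmest had a mean of 35.2.

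The calls between the sets were sensitive to leaving out 1 array, which also removes a residual degree of freedom from the fit. A lost call is thus not by itself a moved value. Over these fits the change between the fast cells lay between 0.344 and 0.372 for Cox6a1 and between 0.369 and 0.595 for Ndufb8. Between the fast cells, the number of member calls changed with the array left out. It was not set beside the share of all probe sets called in the same fit. Cox6c was kept in every case. Without C6SPGFP fast replicate 1, Cox6c alone was called, and without C6SPGFP fast replicate 2 or C6 fast replicate 2, each of the other 7 calls was also lost. Without C6 fast replicate 1, the calls of Atp5f1d, Cox5b, Cox6a1 and Ndufc1 were lost. Between the slow cells, Ndufv2 was lost without C6SPGFP slow replicate 1 or 2, with adjusted p of 0.054 in both cases, and Sdhaf2 was kept only without either C6 fast array. Each of these values kept its sign in all cases.

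The wider pathway was followed in 6 lists of 32 genes with 54 probe sets, of which 45 were tested: the citrate cycle, pyruvate dehydrogenase with its kinases and phosphatases, carriers and porins, other donors to ubiquinone, assembly factors, and regulators of respiratory genes. In C6SPGFP fast against slow none of 45 was called in limma, and 3 had an unadjusted p under 0.05. In C6 fast against slow, 3 of 45 were called (6.67%, against 6.66% of all probe sets), and on the difference 2 were (4.44%, against 3.82%). Between the fast cells 6 were called (13.3%, against 15.6%) and between the slow cells 1 (2.22%, against 6.34%). The shares called were thus near or below those of all probe sets. In limma no probe set of carriers, donors or assembly factors was called in any comparison. The list of assembly factors held only 1 probe set, of Nubpl (17.7 to 40.7 over the arrays). It did not hold Sdhaf2, which is described above with complex II and was called between the slow cells.

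Pdk1, a kinase that inhibits pyruvate dehydrogenase and so limits the entry of pyruvate into the citrate cycle, had 32.9 and 49.0 in C6SPGFP fast cells, 32.7 and 42.3 in C6SPGFP slow cells, 148 and 131 in C6 fast cells and 34.2 and 42.8 in C6 slow cells. Both C6 fast arrays stood apart from the other 6. It differed by 0.09 between C6SPGFP fast and slow cells, which was not called, and rose by 1.67 ± 0.24 log2 in C6 fast cells (limma adjusted p = 0.0036), and the difference of -1.57 ± 0.34 was called (adjusted p = 0.041). The call on the difference was lost on leaving out any 1 of the 8 arrays, with adjusted p of 0.054 to 0.17, while the call in C6 was kept in each case. Between the fast cells Pdk1 was lower in C6SPGFP, with a log2 change of -1.61 (adjusted p = 0.0025).

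Hif1a, the oxygen-regulated subunit of a transcription factor known to induce Pdk1, was likewise highest in C6 fast cells. It had 59.3 and 71.6 in C6SPGFP fast cells, 69.9 and 67.9 in C6SPGFP slow cells, 192 and 232 in C6 fast cells and 58.4 and 92.5 in C6 slow cells. C6 fast arrays were again apart. It rose by 1.42 ± 0.24 log2 in C6 (limma adjusted p = 0.0086), was lower in C6SPGFP fast than in C6 fast cells (-1.58, adjusted p = 0.0028), and its difference between the changes, -1.49, was not called (adjusted p = 0.051). Without C6 fast replicate 2, the call in C6 was lost (adjusted p = 0.064).

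Mdh2, the malate dehydrogenase of the citrate cycle, had 1603 and 1852 in C6SPGFP fast cells, 1407 and 1476 in C6SPGFP slow cells, 979 and 1095 in C6 fast cells and 1595 and 1519 in C6 slow cells on its brighter probe set. It fell in C6 fast cells (-0.58 ± 0.12 log2, limma adjusted p = 0.020) and was higher in C6SPGFP fast than in C6 fast cells (0.73, adjusted p = 0.0038). The difference between the changes was 0.84 ± 0.17 (adjusted p = 0.029), and this call was kept without C6 slow replicate 2 and lost on leaving out any of the other 7 arrays (adjusted p up to 0.12). The call in C6 was lost without either C6 fast array or C6 slow replicate 1 (adjusted p up to 0.11). The second probe set gave -0.41 in C6 (adjusted p = 0.10) and 0.19 for the difference, and was not called.

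Pdk2, another kinase of the same family, was higher in C6SPGFP fast than in C6 fast cells on both probe sets, by 0.74 and 0.77 log2 (limma adjusted p = 0.022 and 0.027), and 199 and 192 stood against 107 and 120 on the first. Pdp1, a phosphatase that reactivates pyruvate dehydrogenase, was lower on 1 probe set in C6SPGFP fast than in C6 fast cells (-0.88, limma adjusted p = 0.020) and in C6SPGFP slow than in C6 slow cells (-1.03, adjusted p = 0.020). Its other probe set gave 0.18 and -0.43 in those comparisons and was not called. The probe sets thus disagree in sign between the fast cells and share their sign between the slow cells. For Pdk2 and Pdp1, leaving out either C6SPGFP fast array lost each call between the fast cells. Without C6 fast replicate 1 the calls of both Pdk2 probe sets were also lost. Without C6 fast replicate 2 those of the second Pdk2 probe set and of Pdp1 were lost. The second Pdk2 probe set also lost its call without either C6SPGFP slow array. Those arrays are not part of this comparison, and its change stayed at 0.77. The call of Pdp1 between the slow cells was lost without any 1 of the 4 slow arrays. Adjusted p in these cases reached at most 0.15. The subunits of pyruvate dehydrogenase itself (Pdha1, Pdhb, Dlat and Pdhx) were not called in any comparison.

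**Figure D4:**
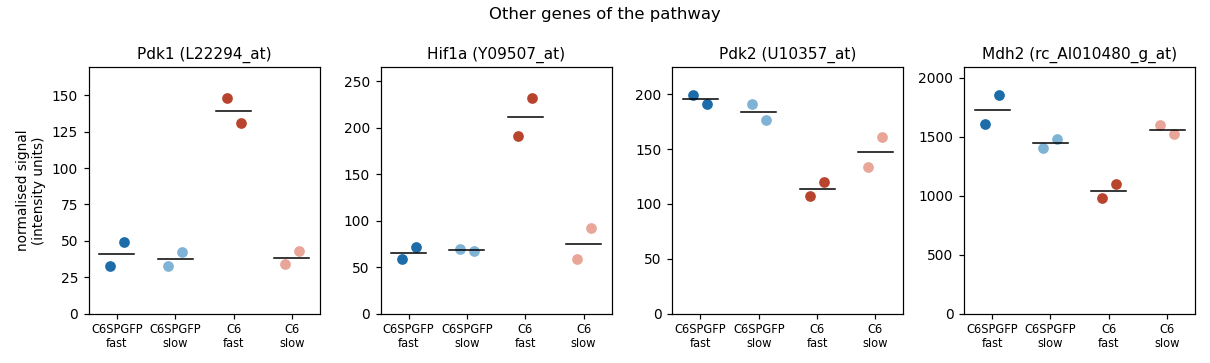
Normalised signal (vertical axis, intensity units, from 0) of Pdk1, Hif1a, Pdk2 and the brighter Mdh2 probe set in the 4 groups (horizontal axis); points are single arrays and bars are means of 2 arrays. C6 fast arrays are highest for Pdk1 (148 and 131) and Hif1a (192 and 232) and lowest for Pdk2 and Mdh2.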

How the data were processed

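The authors deposited 1 linear signal (intensity) per probe set and array. No label or header names the software or the scaling behind it, and without detection calls no probe set was judged against background. Trimmed means (2%) differed between arrays, so arrays were quantile normalised. Values were analysed as log2(signal + 8), which understates the change of dim probe sets. Of 8740 probe sets that are not controls, 6684 with a mean signal of at least 8 were tested and 2056 were not. The 4 group means were fitted over the 8 arrays with limma 3.58.1 in R 4.3.3 (lmFit, and eBayes with a trend), two-sided, with 4 residual and 4.49 prior degrees of freedom and Benjamini-Hochberg adjustment at 5% within a comparison. Fold values are of signal plus 8. The fit was tested on simulated data.

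Probe sets were named from the platform's probe table, in which 7006 had 1 symbol, 308 had more and 1426 had none, and the symbols of the 102 members were updated through Entrez identifiers in a RefSeq table of assembly GRCr8. Promoters are RefSeq's. Named with values were members called in any comparison, the brightest and dimmest per complex, the 3 largest changes each way per comparison, isoform sets, genes whose probe sets disagree, members below the filter and called genes of the other lists. Members and lists were chosen with earlier results of these data known. Alternatives were a pseudocount of 32, no filter, a filter at the median, 1 factor per array, the deposited scaling, no trend, a replicate block, only the 4 arrays compared, and leaving out each array, where a lone array is assumed to vary like the other groups. The same alternatives were added for the other pathway genes after the data had been seen.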

Additional observations from a re-analysis of the deposited data

Results flagged for a closer look

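Pdk1 and 1 of 2 probe sets of Mdh2, both outside the respiratory chain itself, were called for a change between fast and slow cells that differed between C6SPGFP and C6, tested in the linear model. For Pdk1 the C6SPGFP change was lower than the C6 change by a log2 value of -1.57 (limma adjusted p = 0.041). Pdk1 was 1.67 log2 higher in fast cells in C6, while its change of 0.09 in C6SPGFP was not called. For Mdh2 the C6SPGFP change was higher than the C6 change by 0.84 (limma adjusted p = 0.029). Mdh2 was lower in fast cells in C6 (-0.58), while its change of 0.26 in C6SPGFP was not called. The Pdk1 call was kept in 0 of 8 fits that left out 1 array and the Mdh2 call in 1 of 8, and the second Mdh2 probe set gave 0.19 (adjusted p = 0.68). No member of the respiratory chain or ATP synthase was called on this difference with all arrays, although Ndufa5 had a fitted difference of 1.49 (adjusted p = 0.12), and groups of 2 arrays were too small to be examined for single outlying arrays.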

How the results depend on the processing

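All called member values kept their sign under every alternative other than the deposited scaling. That scaling leaves C6SPGFP fast replicate 1 on its own scale and moved the median of all probe sets to 1.04 in C6SPGFP fast minus slow, 1.08 on the difference and 1.11 between the fast cells. Under it, member medians were 1.055 in C6SPGFP, 1.19 on the difference, 1.17 between the fast cells and 0.0029 between the slow cells, and no member or other pathway gene was called (0) in C6, between the fast cells or between the slow cells, nor any other pathway gene on the difference (0). It reversed Atp5if1 (0.51), Sdha (0.68) and Ndufa8 (0.40) in C6SPGFP fast minus slow, Cox6c (0.42), Atp5if1 (0.40) and Ndufa8 (0.015) on the difference, and Ndufv3 (0.51), Ndufa8 (0.48) and Atp5f1d (0.54) between the fast cells. The single member call in C6 became 0 with no filter, with 1 factor per array, with no trend and with only the 4 arrays compared, and the cause was not tested. Between the slow cells, 1 member was called with no trend and 1 with only the 4 arrays. Between the fast cells, 5 were called with 1 factor per array (3 higher and 2 lower, against 6 and 2) and 3 with no trend. Cox5b, Cox6a1 and Ndufb8 were not called with 1 factor. With no trend only Cox6c, Ndufa4 and Ndufv2 were called. Other pathway calls were 1 on the difference with no filter, 1 there with no trend, and 2 between the slow cells with 1 factor per array.

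With 1 array left out, member calls ranged from 0 to 1 in C6SPGFP, 0 to 3 in C6, 0 to 1 on the difference, 1 to 11 between the fast cells and 0 to 2 between the slow cells. Member medians ranged from -0.065 to -0.011, -0.173 to -0.028, -0.063 to 0.132, 0.057 to 0.155 and -0.053 to 0.160 in the same order. Other pathway calls ranged from 1 to 4 in C6, 0 to 2 on the difference, 3 to 6 between the fast cells and 0 to 2 between the slow cells. The dimmest Ndufb8 probe set ranged from -0.017, a reversal, without C6SPGFP slow replicate 1 to 0.853 without replicate 2 in C6SPGFP fast minus slow. The correlation of replicate 1 minus replicate 2 across probe sets was 0.10 between C6SPGFP fast and slow cells and 0.27 between C6 fast and slow cells, and -0.13 to 0.028 between groups of different sets. The labels give no source for a pairing, and whether same-numbered arrays of a set share a batch was not tested. With the number as a replicate block, member calls were 0 in C6SPGFP, 1 in C6, 0 on the difference, 8 between the fast cells and 2 between the slow cells, as without it. No dim probe set could be judged against background, which limits its values.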
